A study of Mus musculus with 8 samples.

Results

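The genes described here are 10 calcium channels, pumps and mechanosensors, Piezo1, Trpv4, Trpm7, Trpm4, Orai1, Stim1, Itpr1, Itpr2, Atp2a2 and Mcu. They were taken by name from a table of 27110 mouse genes, and all 10 were found there. Total RNA of 8 mouse livers, labelled week 7, was sequenced. The 4 LKO livers carry a liver-restricted deletion of Pkd1l1, and their libraries, replicates 3, 4, 12 and 13, are all labelled female. The 4 Fl/Fl livers are their controls, with replicates 5, 7 and 9 labelled female and replicate 10 labelled male. Every liver has the treatment label NT, and the labels name hepatocytes and cholangiocytes as the cells. The Cre driver, the strain and the time of day of collection are not given in the sources used here.

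Calcium enters a liver cell through channels of the plasma membrane or is released from the endoplasmic reticulum, and pumps return it to the store or expel it. Hormones that act through Gq proteins and phospholipase C make inositol trisphosphate, which opens the Itpr channels of the endoplasmic reticulum, and the emptied store is sensed by Stim1, which opens Orai1 at the cell surface. Atp2a2 refills the store and Mcu lets calcium into mitochondria, where it stimulates respiration. Piezo1 and Trpv4 open when membranes are stretched or cells swell, and Trpv4 is known from the cilia of cholangiocytes. Pkd1l1 encodes a polycystin-family protein, whose partners include channels of the same superfamily.

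The libraries held 71491723 to 76622375 reads in genes, and 16420 genes had enough reads to test, all 10 members among them. The contrast was LKO over Fl/Fl within females, with the male library under its own sex term, tested with edgeR's quasi-likelihood test and Benjamini-Hochberg adjustment. Pkd1l1 itself had 2 reads over the 4 LKO livers, 2 over the 3 female controls and 0 in Fl/Fl 10, so the deletion could not be checked from these counts. Some libraries stand apart. Fos, an immediate early gene, was at 4.87 to 12.7 CPM (reads scaled to library size) in LKO, at 298, 264 and 30.7 CPM in Fl/Fl 5, 7 and 9, and at 4.78 CPM in Fl/Fl 10. The clock genes Dbp and Arntl divide the livers across genotype, with Dbp below Arntl in LKO 3 and 4 and Fl/Fl 5 and 7 and above it in LKO 12 and 13 and Fl/Fl 9 and 10. Summed CPM of 6 hepatocyte markers was 112420 to 122820 in LKO and 116770 to 128270 in female Fl/Fl, against 40.1 to 53.0 and 49.2 to 58.2 for 6 cholangiocyte markers. The male Fl/Fl 10 had the lowest hepatocyte sum of all livers, 74963 CPM, and 43.7 CPM of the cholangiocyte markers. In bulk tissue, fewer cells of a type and less RNA per cell cannot be told apart.

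None of the 10 members passed an adjusted p of 0.05, in either direction, where 1.41% of all genes tested did (1.02% higher and 0.396% lower). None had an unadjusted p under 0.05 either, against 16.1% of all genes tested, and none passed with DESeq2, limma voom or limma on the deposited FPKM. The ranges of LKO and female Fl/Fl overlapped in all 10, where a full separation was found in 15.1% of all genes tested. The log2 fold changes ran from -0.14 for Piezo1 to 0.34 for Trpv4, with 7 above 0 and 3 below, and a median of 0.06 against -0.0032 over all genes tested. The intervals set how far this goes: for Stim1, Trpm7, Itpr1 and Itpr2 the 95% interval stayed within 0.38 on the log2 scale in both directions, while for Trpv4 it ran from -0.41 to 1.09. The authors' deposited table, which compares all 4 Fl/Fl libraries with LKO, lists adjusted p-values of 0.761 to 0.993 for the 10.

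**Figure D1:**
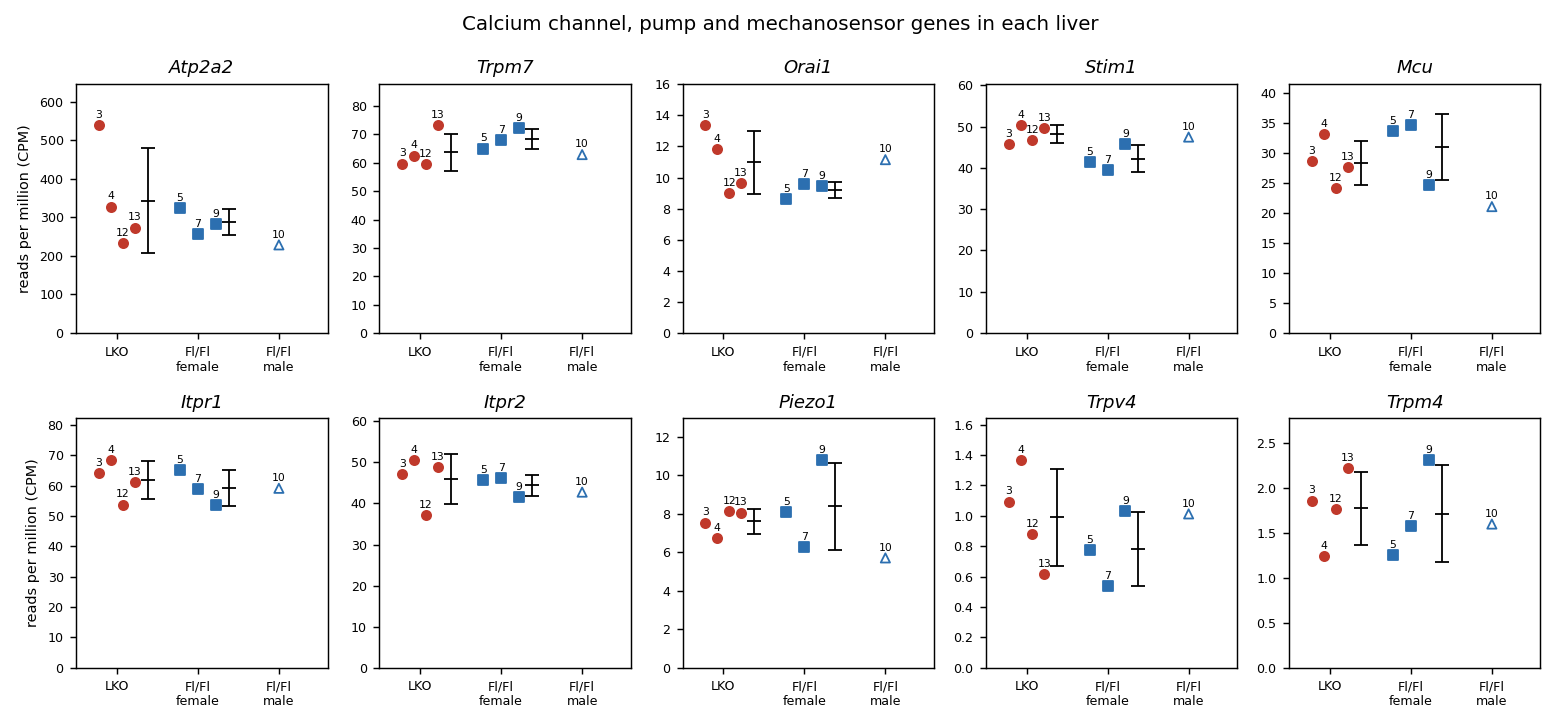
CPM (linear axes from 0) of each member in each liver, in LKO (red circles), female Fl/Fl (blue squares) and male Fl/Fl (open triangles), with the replicate number at each point. Bars beside the points give mean ± SD for LKO (n = 4) and female Fl/Fl (n = 3), and LKO 3 is the high point of Atp2a2 at 539 CPM.

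**Figure D2:**
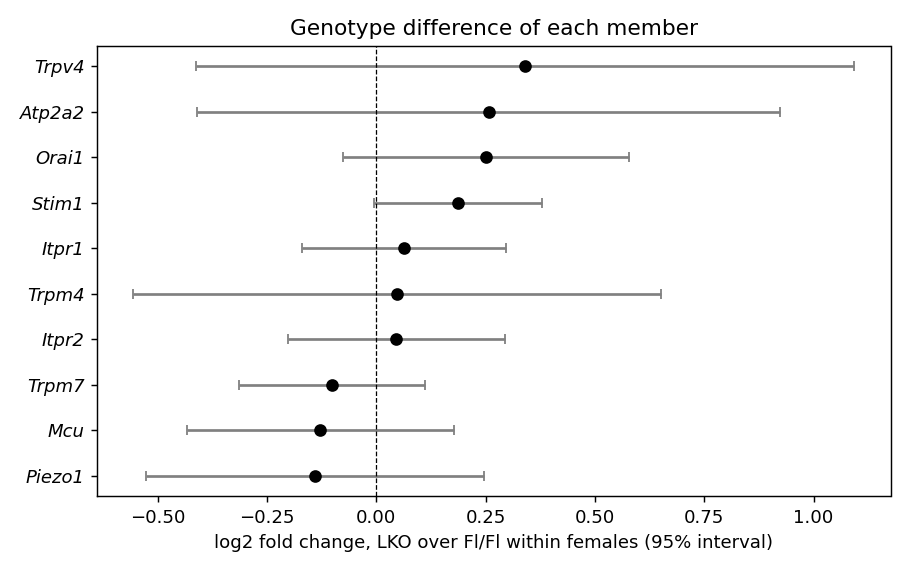
Log2 fold change of each member, LKO over Fl/Fl within females, with its 95% interval (horizontal axis). Every interval spans 0, and those of Trpv4, Atp2a2 and Trpm4 are the widest.

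Among the mechanosensors, Piezo1 forms a large trimeric channel that opens under membrane tension and in liver is best known from endothelial cells. Piezo1 (ENSMUSG00000014444, chromosome 8, 122481698 to 122551329 of mm10, minus strand) had 7.53, 6.71, 8.14 and 8.06 CPM in LKO 3, 4, 12 and 13, against 8.09, 6.28 and 10.8 CPM in Fl/Fl 5, 7 and 9 and 5.70 CPM in the male Fl/Fl 10. The 4 LKO values fell inside the female Fl/Fl range, whose ends are Fl/Fl 7 and 9. The log2 fold change was -0.14 ± 0.18 (SE, adjusted p = 0.754), and without Fl/Fl 9 it was 0.08. Fl/Fl 9 also had the highest summed CPM of the 7 sinusoidal endothelial markers, 386, against 324 to 371 in LKO and 294 and 317 in Fl/Fl 5 and 7. Fl/Fl 9 was also the highest of all livers for the stellate cell (188 CPM), macrophage (435 CPM), lymphocyte (21.1 CPM) and hepatocyte (128270 CPM) markers. Other marker sums went differently. Cholangiocyte markers were at 49.2 CPM in Fl/Fl 9, against 58.2 and 55.2 CPM in Fl/Fl 5 and 7. Smooth muscle markers were at 4.10 CPM in Fl/Fl 9, against 12.6 CPM in Fl/Fl 7 and 6.28 CPM in LKO 12. The part of any of these in the Piezo1 value was not tested. Exons of Piezo1 share 2441 bases with exons of Ctu2, a tRNA-modifying enzyme encoded on the opposite strand. No source says whether strand was used in counting, so reads from the shared bases cannot be assigned to either gene with certainty. Ctu2 itself had 12.6, 10.9, 10.8 and 9.48 CPM in LKO 3, 4, 12 and 13, against 11.1, 9.05 and 9.77 CPM in Fl/Fl 5, 7 and 9 and 13.6 CPM in Fl/Fl 10.

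Trpv4, a cation channel opened by cell swelling and warmth, was among the lowest members in bulk liver. Trpv4 (ENSMUSG00000014158, chromosome 5, 114622152 to 114658421) had 83, 99, 66 and 47 reads in LKO 3, 4, 12 and 13, against 58, 42 and 79 reads in Fl/Fl 5, 7 and 9 and 71 reads in Fl/Fl 10. That is 0.62 to 1.37 CPM in LKO against 0.54 to 1.03 CPM in female Fl/Fl, and the groups overlapped. The log2 fold change was 0.34 ± 0.34 (adjusted p = 0.680), the largest of the 10 and also the least certain. It depends on which libraries of either genotype are kept. With 1 library left out it ran from 0.13 (Fl/Fl 7) to 0.59 (Fl/Fl 9), with 0.15 for LKO 4 and 0.51 for LKO 13. It was -0.07 with Fl/Fl 5 and 7 both left out, which leaves Fl/Fl 9 as the only female control.

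The other mechanosensors and Piezo partners held no call. Of 10 such genes 7 could be tested, and with edgeR 0 passed, 0 with DESeq2, and 1 had an unadjusted p under 0.05. That gene was Mdfic, which encodes a protein that binds Piezo channels, at 26.3, 26.1, 24.7 and 26.8 CPM in LKO, against 31.8, 28.8 and 32.2 CPM in female Fl/Fl (log2 -0.25 ± 0.08, adjusted p = 0.174). The most abundant per length was Tmem120a, at 25.8 ± 2.87 FPKM (reads scaled to gene length and library size) in LKO and 23.4 ± 1.56 FPKM in female Fl/Fl (mean ± SD, n = 4 and 3, as for all levels written so; a log2 fold change is given ± SE). Piezo2, the second Piezo channel, was at 0.160 ± 0.0257 FPKM in LKO and 0.207 ± 0.0530 FPKM in female Fl/Fl, below Piezo1.

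Trpm7 joins a channel for magnesium, zinc and calcium to a protein kinase and is expressed in most cells. Trpm7 (ENSMUSG00000027365, chromosome 2, 126791565 to 126876230) had 59.7, 62.5, 59.5 and 73.2 CPM in LKO 3, 4, 12 and 13, against 65.0, 68.0 and 72.1 CPM in Fl/Fl 5, 7 and 9 and 62.9 CPM in Fl/Fl 10. LKO 13 was the highest of all livers and the other LKO livers were the lowest, so the groups overlapped through LKO 13. The log2 fold change was -0.10 ± 0.10, with a 95% interval of -0.31 to 0.11 (adjusted p = 0.660), and -0.18 without LKO 13. Trpm4, which opens on internal calcium but passes sodium and potassium, had 141, 90, 132 and 169 reads in LKO, against 94, 123 and 177 reads in female Fl/Fl and 112 reads in Fl/Fl 10. Its CPM of 1.77 ± 0.404 in LKO and 1.71 ± 0.540 in female Fl/Fl differed by less than the spread of either group (log2 0.05 ± 0.27, adjusted p = 0.955). Of 21 other TRP channels 8 could be tested. None passed with edgeR or DESeq2, and none had an unadjusted p under 0.05. Mcoln2, a lysosomal channel, had the smallest p with 0.191 ± 0.0592 CPM in LKO and 0.354 ± 0.159 CPM in female Fl/Fl (adjusted p = 0.386), and its relative Mcoln1 was the most abundant at 4.90 ± 0.281 FPKM in LKO and 4.98 ± 0.463 FPKM in female Fl/Fl.

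Of the 10 members, the store-operated pair lay nearest to the threshold. Stim1, the calcium sensor of the endoplasmic reticulum (ENSMUSG00000030987, chromosome 7, 102267806 to 102437319, plus strand), had 45.8, 50.3, 46.8 and 49.5 CPM in LKO 3, 4, 12 and 13. It had 41.4, 39.5 and 45.8 CPM in Fl/Fl 5, 7 and 9 and 47.5 CPM in Fl/Fl 10. LKO 3 and Fl/Fl 9 met at the same level, and the other LKO livers were above the female Fl/Fl livers. The log2 fold change was 0.19 ± 0.09, with a 95% interval of -0.0051 to 0.38 (adjusted p = 0.322, the smallest of the 10). Without Fl/Fl 9 it was 0.24 (adjusted p = 0.155). Without Fl/Fl 5 and 7, which leaves Fl/Fl 9 as the only female control, it was 0.06.

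Orai1 forms the pore of the store-operated channel. Orai1 (ENSMUSG00000049686, chromosome 5, 123015074 to 123030456, plus strand) had 13.4, 11.8, 9.02 and 9.66 CPM in LKO 3, 4, 12 and 13, against 8.62, 9.57 and 9.47 CPM in Fl/Fl 5, 7 and 9 and 11.2 CPM in Fl/Fl 10. LKO 3 and 4 were clearly above the female Fl/Fl livers and LKO 13 barely so, while LKO 12 lay among them. The log2 fold change was 0.25 ± 0.15 (adjusted p = 0.440), and 0.14 without LKO 3. Among LKO 3 and 4 and Fl/Fl 5 and 7, where Dbp was below Arntl, LKO was 0.47 higher on the log2 scale, and among LKO 12 and 13 and Fl/Fl 9 the difference was -0.02. With the clock balance as a covariate the log2 fold change of Orai1 was 0.26 (adjusted p = 0.314).

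Promoters of this pair are shown because these members lay nearest to the threshold and their shares within their families are compared next. The sequences are the 250 bases before the RefSeq start on GRCm38.p6, from chr7:102267569-102267818 (plus strand) for Stim1 and chr5:123014824-123015073 (plus strand) for Orai1. Capitals mark matches, on either strand, to the CCAAT box (CCAAT), the GC box (GGGCGG), the E-box (CACGTG), the TATA box (TATAAA), the AP-1 site (TGANTCA) or the D-box (TTATGTAA).
Stim1: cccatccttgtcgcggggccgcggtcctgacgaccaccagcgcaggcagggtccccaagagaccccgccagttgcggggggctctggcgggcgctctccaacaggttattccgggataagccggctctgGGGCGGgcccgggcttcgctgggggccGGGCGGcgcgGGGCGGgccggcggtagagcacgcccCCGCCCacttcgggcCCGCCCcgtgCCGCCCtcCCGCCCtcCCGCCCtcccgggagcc
Orai1: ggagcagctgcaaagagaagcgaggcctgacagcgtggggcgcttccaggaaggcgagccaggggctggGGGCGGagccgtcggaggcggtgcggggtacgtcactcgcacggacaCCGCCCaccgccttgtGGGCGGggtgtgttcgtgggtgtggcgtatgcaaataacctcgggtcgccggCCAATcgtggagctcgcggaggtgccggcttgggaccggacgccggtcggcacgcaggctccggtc
The Stim1 window held 8 GC boxes and no other match, and the Orai1 window held 3 GC boxes and 1 CCAAT box. Of all 32851 promoters in the table, 32.7% held a GC box and 33.85% a CCAAT box. None of the 6 motifs contains another.

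Within its family, Stim1 took a larger share in each LKO liver than in any Fl/Fl liver. Among single genes, 15.1% of all tested separated LKO from female Fl/Fl, and no such background was counted for family shares. Stim1 made up 48.1%, 51.3%, 45.3% and 46.1% of the summed FPKM of Stim1 and Stim2 in LKO 3, 4, 12 and 13, against 41.6%, 39.2% and 43.1% in Fl/Fl 5, 7 and 9 and 41.3% in Fl/Fl 10. The difference was 6.39 percentage points (two-sided exact permutation test with 35 splits, p = 0.0571, the smallest p they can give, 0.114 adjusted over 4 ratios). With the male library counted as Fl/Fl the difference was 6.39 points as well, and the exact permutation p of 0.0286, not adjusted, is the smallest that 4 against 4 can give. Stim2, the second sensor, was at 5.29 ± 0.502 FPKM in LKO and 6.0 ± 0.161 FPKM in female Fl/Fl, and its own log2 fold change was -0.18 ± 0.09 (adjusted p = 0.379). Orai1 made up 43.1%, 42.4%, 37.5% and 40.6% of Orai1, Orai2 and Orai3 in LKO, against 35.3%, 37.3% and 37.5% in female Fl/Fl and 38.1% in Fl/Fl 10. LKO 12 and Fl/Fl 9 differed by less than the last printed digit, and Fl/Fl 10 was above LKO 12. The difference of 4.22 points again had the smallest exact permutation p these splits allow (0.0571, 0.114 adjusted), and from CPM in place of FPKM the exact permutation p was 0.171. With the male library counted as Fl/Fl the groups overlapped, and the difference was 3.87 points (exact permutation p = 0.0571, not adjusted).

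**Figure D3:**
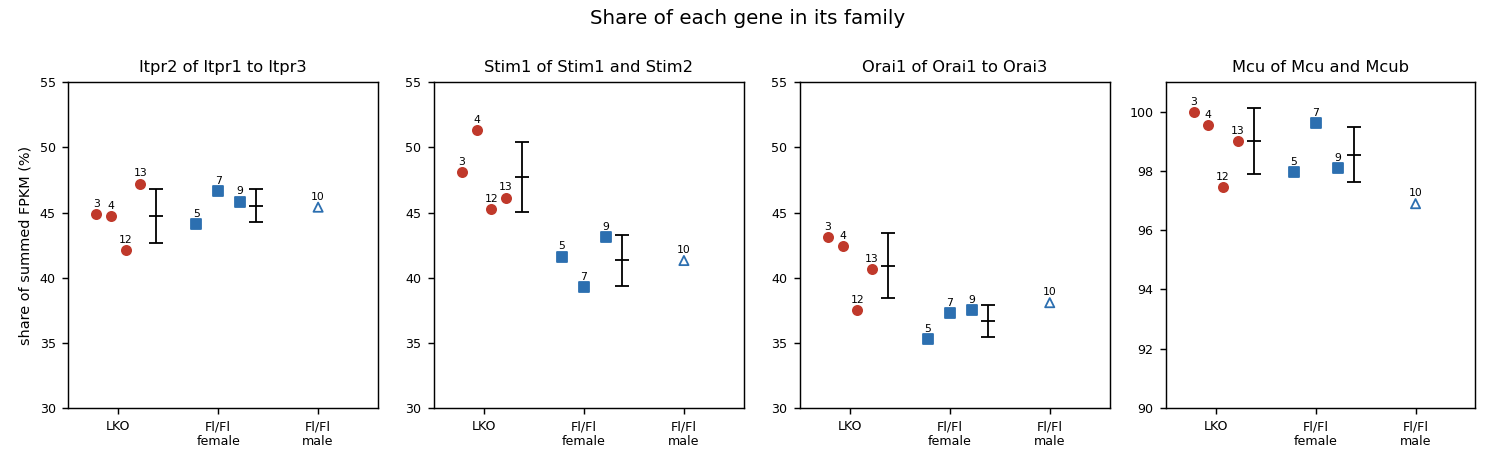
Share of Itpr2, Stim1, Orai1 and Mcu in the summed deposited FPKM of their families, in percent, for each LKO (red circles), female Fl/Fl (blue squares) and male Fl/Fl (open triangle) liver. Bars beside the points give mean ± SD (n = 4 and 3). The axes do not start at 0, and the Stim1 panel shows LKO at 45.3% to 51.3% above Fl/Fl at 39.2% to 43.1%.

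Of 8 tested store-operated partners, 0 passed with edgeR and 0 with DESeq2, and 1 had an unadjusted p under 0.05. This was Saraf, which slows store-operated entry, at 175, 155, 133 and 137 CPM in LKO 3, 4, 12 and 13, against 121, 123 and 128 CPM in female Fl/Fl and 156 CPM in Fl/Fl 10 (log2 0.28 ± 0.11, adjusted p = 0.234). Saraf was also the most abundant of the list, at 53.2 ± 6.98 FPKM in LKO and 44.0 ± 1.5 FPKM in female Fl/Fl. Orai3, a further pore subunit, was more abundant per length than Orai1 in each group, at 6.84 ± 0.690 FPKM in LKO and 6.99 ± 0.101 FPKM in female Fl/Fl, where Orai1 had 4.96 ± 0.914 and 4.17 ± 0.238 FPKM. Orai2 had 0.263 ± 0.0220 FPKM in LKO and 0.208 ± 0.0518 FPKM in female Fl/Fl.

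The release channels of the endoplasmic reticulum differed little between genotypes. Itpr1 (ENSMUSG00000030102, chromosome 6, 108213096 to 108551109) had 64.1, 68.5, 53.8 and 61.1 CPM in LKO 3, 4, 12 and 13, against 65.1, 58.9 and 53.5 CPM in Fl/Fl 5, 7 and 9 and 59.1 CPM in Fl/Fl 10 (log2 0.06 ± 0.11, 95% interval -0.17 to 0.30, adjusted p = 0.823). Itpr2, the main inositol trisphosphate receptor of hepatocytes (ENSMUSG00000030287, chromosome 6, 146108299 to 146502223), had 47.1, 50.6, 37.1 and 48.9 CPM in LKO, against 45.7, 46.2 and 41.5 CPM in female Fl/Fl and 42.8 CPM in Fl/Fl 10 (log2 0.05 ± 0.11, 95% interval -0.20 to 0.29, adjusted p = 0.891). In both genes the groups overlapped, and LKO 4 was the highest LKO liver and LKO 12 the lowest. Per length Itpr1 and Itpr2 were close, with Itpr1 the higher in each of the 8 livers. Itpr1 was at 3.50 ± 0.357 and Itpr2 at 3.22 ± 0.431 FPKM in LKO, and at 3.35 ± 0.320 and 3.12 ± 0.166 FPKM in female Fl/Fl. Itpr3, known in liver from cholangiocytes, was at 0.457 ± 0.0763 FPKM in LKO and 0.382 ± 0.0248 FPKM in female Fl/Fl. Itpr2 made up 44.7 ± 2.10% of the Itpr total in LKO and 45.5 ± 1.29% in female Fl/Fl (exact permutation test, p = 0.629, n = 4 and 3).

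Of 13 tested partners of the release channels, 0 passed with edgeR and 0 with DESeq2, and 3 had an unadjusted p under 0.05. Tmem38b, a potassium channel that balances charge during release, had the smallest p, at 69.8 ± 8.34 CPM in LKO and 56.6 ± 1.64 CPM in female Fl/Fl (adjusted p = 0.184). Tmbim6, a leak channel and inhibitor of cell death, was the most abundant at 403 ± 15.8 FPKM in LKO and 373 ± 24.8 FPKM in female Fl/Fl. Ryanodine receptors, the release channels of muscle, were near the floor. Ryr1 and Ryr3 had 47 reads each over the 8 libraries.

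Atp2a2, the SERCA2 pump that fills the store, was the most abundant member and, with a coefficient of variation of 39.6%, the most variable of the 10 between LKO livers. Atp2a2 (ENSMUSG00000029467, chromosome 5, 122453513 to 122502225, minus strand) had 539, 328, 234 and 274 CPM in LKO 3, 4, 12 and 13, against 324, 256 and 282 CPM in Fl/Fl 5, 7 and 9 and 229 CPM in Fl/Fl 10. LKO 3 stood 1.94 times above the mean of the other LKO livers, which lay among the Fl/Fl values or next to them. The log2 fold change was 0.26 ± 0.28 (adjusted p = 0.719), and -0.05 without LKO 3. A ratio of LKO 3 to the other LKO livers at least as high was found in 125 of 12337 tested genes with a mean of at least 1 CPM, or 1.01%. Calr and Canx, genes of the same compartment, were also higher in LKO 3 than in the other LKO livers, but by less. Calr, the main calcium buffer of the endoplasmic reticulum, had 885 CPM in LKO 3 and 593 to 666 CPM in the other LKO livers, against 677 to 794 CPM in female Fl/Fl and 1029 CPM in Fl/Fl 10. The chaperone Canx had 392.1 CPM in LKO 3 and 323 to 342 CPM in the other LKO livers, against 349 to 403 CPM in female Fl/Fl. Gene counts do not separate the SERCA2 isoforms.

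The other SERCA genes were far lower per length. Atp2a3 was at 0.434 ± 0.0672 FPKM in LKO and 0.457 ± 0.0794 FPKM in female Fl/Fl, and Atp2a1, the pump of fast muscle, had 32 reads over the 8 libraries, where Atp2a2 had 184852. Of 8 tested other pumps and exchangers, 0 passed with edgeR or DESeq2 and 0 had an unadjusted p under 0.05. Atp2c1, the calcium pump of the Golgi, was the most abundant at 4.99 ± 0.364 FPKM in LKO and 4.88 ± 0.0648 FPKM in female Fl/Fl. Slc24a5, an exchanger known from pigment cells, had the smallest p, at 0.943 ± 0.278 CPM in LKO and 0.801 ± 0.0241 CPM in female Fl/Fl (adjusted p = 0.751).

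Mcu, the pore of the mitochondrial uniporter (ENSMUSG00000009647, chromosome 10, 59446984 to 59616692, minus strand), had 28.6, 33.1, 24.2 and 27.7 CPM in LKO 3, 4, 12 and 13. It had 33.7, 34.7 and 24.7 CPM in Fl/Fl 5, 7 and 9 and 21.1 CPM in Fl/Fl 10. The genotypes overlapped over nearly their whole ranges (log2 -0.13 ± 0.14, 95% interval -0.43 to 0.18, adjusted p = 0.707). The log2 fold change of Mcu was -0.27 with Fl/Fl 9 left out (adjusted p = 0.227). It was 0.19 with Fl/Fl 5 and 7 left out, which leaves Fl/Fl 9 as the only female control. Mcu was the only member whose values did not overlap between the livers with Dbp below Arntl and those with Dbp above it. The livers with Dbp below Arntl had 28.6 to 34.7 CPM of Mcu and those with Dbp above Arntl 21.1 to 27.7 CPM, with 2 LKO and 2 Fl/Fl livers in each set. The gap was narrow, between LKO 3 at 28.6 CPM and LKO 13 at 27.7 CPM, and the lowest value was that of the male Fl/Fl 10. No test was made of this separation, since the sets were read from the same libraries. How many of all genes tested separate the sets in this way was not counted. With the clock balance as a covariate the log2 fold change by genotype was -0.08 (adjusted p = 0.747). Of the other members, Itpr1, Itpr2 and Atp2a2 also spanned higher levels with Dbp below Arntl, at 256 to 539 against 229 to 282 CPM for Atp2a2, but with overlap between the sets. Trpm4 went the other way, at 1.24 to 1.86 CPM with Dbp below Arntl and 1.60 to 2.31 CPM with Dbp above it, and the sets of the remaining members overlapped too.

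**Figure D4:**
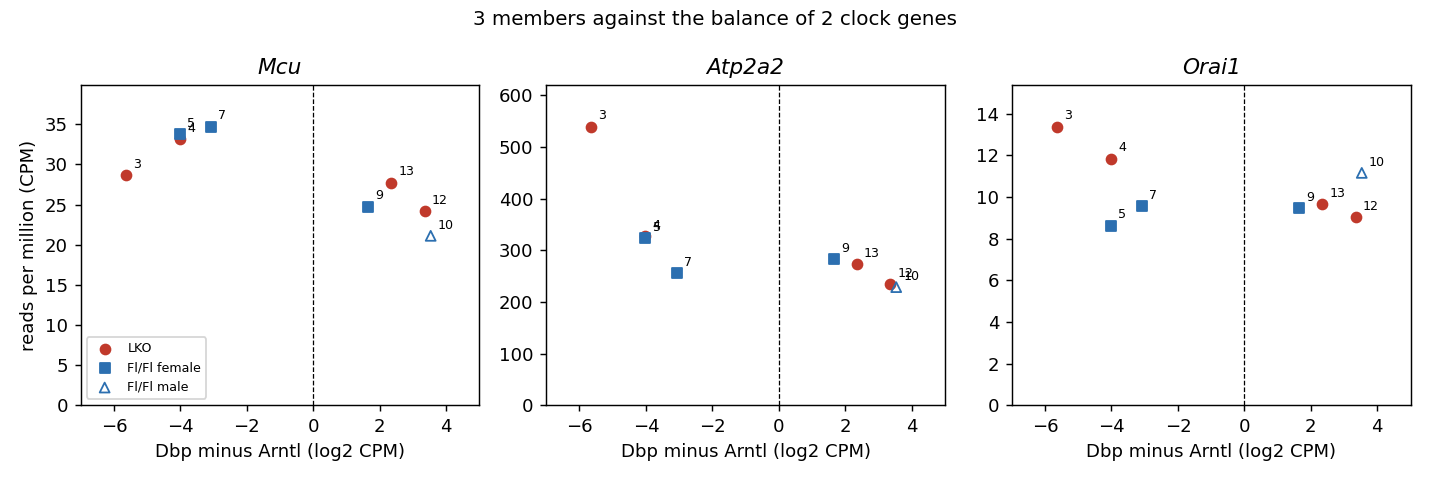
CPM of Mcu, Atp2a2 and Orai1 (vertical axes from 0) against log2 CPM of Dbp minus log2 CPM of Arntl (horizontal axis), with 1 point per liver for LKO (red circles), female Fl/Fl (blue squares) and male Fl/Fl (open triangles). Mcu lies at 28.6 to 34.7 CPM left of 0 and at 21.1 to 27.7 CPM right of it, while LKO 3 stands alone at 539 CPM of Atp2a2.

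The Mcu promoter is shown because Mcu was set against the clock balance above. It is the 250 bases before the RefSeq start on GRCm38.p6, from chr10:59616693-59616942 (minus strand), with the same motifs in capitals.
Mcu: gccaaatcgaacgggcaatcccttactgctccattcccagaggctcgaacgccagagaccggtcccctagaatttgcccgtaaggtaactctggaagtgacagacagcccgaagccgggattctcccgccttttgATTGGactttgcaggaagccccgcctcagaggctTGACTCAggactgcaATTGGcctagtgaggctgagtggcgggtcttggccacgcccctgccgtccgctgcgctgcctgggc
The window held 2 CCAAT boxes and 1 AP-1 site, and neither the E-box nor the D-box, which are among the motifs bound by clock factors. The E-box and D-box letters occur in 6.02% and 0.819% of all promoters in the table, and the AP-1 letters in 6.75%. No other clock motif was searched, and control of Mcu by the clock was not tested.

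The uniporter's regulators were measured in the same libraries. Mcub, its inhibitory paralog, had 43 reads over the 8 libraries, and Mcu made up 99.0 ± 1.11% of their sum in LKO and 98.6 ± 0.918% in female Fl/Fl (exact permutation test, p = 0.686, n = 4 and 3). Mcu itself was at 4.25 ± 0.557 FPKM in LKO and 4.65 ± 0.802 FPKM in female Fl/Fl. Micu2, a regulatory subunit, was at 13.5 ± 3.46 FPKM in LKO and 14.4 ± 3.10 FPKM in female Fl/Fl. Its CPM also separated the livers by clock balance, but in the direction opposite to Mcu. With Dbp below Arntl it reached at most 37.9 CPM (Fl/Fl 7), and with Dbp above Arntl at least 38.2 CPM (LKO 13). As for Mcu, the gap was narrow and the separation was not tested. The share of all genes tested that separate the sets was not counted, so neither gene is shown to stand out. Smdt1, which encodes EMRE, a small subunit that the uniporter needs to conduct, was at 44.9 ± 5.91 CPM in LKO and 33.9 ± 4.08 CPM in female Fl/Fl, with 56.9 CPM in Fl/Fl 10 (log2 0.41 ± 0.12, adjusted p = 0.134). Of 17 tested genes of mitochondrial calcium handling, 0 passed with edgeR and 3 had an unadjusted p under 0.05, 1 higher and 2 lower. Micu3, a regulatory subunit known from neurons, had the smallest p, at 2.37, 2.54, 2.42 and 2.98 CPM in LKO 3, 4, 12 and 13, against 4.46, 3.94 and 3.59 CPM in female Fl/Fl and 2.6 CPM in Fl/Fl 10. Its log2 fold change was -0.63 ± 0.17 (adjusted p = 0.0990), and with DESeq2 it passed (adjusted p = 0.0108). Ghitm, a carrier of the inner membrane, was the most abundant of the list at 86.9 ± 1.52 FPKM in LKO and 79.6 ± 2.37 FPKM in female Fl/Fl.

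Per gene length the members spanned a wide range of levels. Over the 8 livers, deposited FPKM averaged 52.6 for Atp2a2, 6.0 for Trpm7, 4.68 for Orai1, 4.59 for Stim1, 4.27 for Mcu, 3.43 for Itpr1, 3.16 for Itpr2, 0.801 for Piezo1, 0.233 for Trpv4 and 0.166 for Trpm4. Atp2a2 stood above Trpm7 in each of the 8 livers with no overlap of their ranges, and so did Itpr2 above Piezo1 and Piezo1 above Trpv4. From Trpm7 down to Itpr2 each neighbouring pair overlapped, as did Trpv4 and Trpm4. Orai1 and Stim1 could not be ordered, with Orai1 the higher in 4 of 8 livers. By group means, Orai1 at 4.96 and Stim1 at 4.81 FPKM stood above Mcu at 4.25 FPKM in LKO, while in female Fl/Fl Mcu at 4.65 FPKM stood above Stim1 at 4.23 and Orai1 at 4.17 FPKM, and this order was not tested by genotype. Atp2a2 was above 94.8% of the genes tested in mean FPKM, and Trpm4 above 13.2%.

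**Figure D5:**
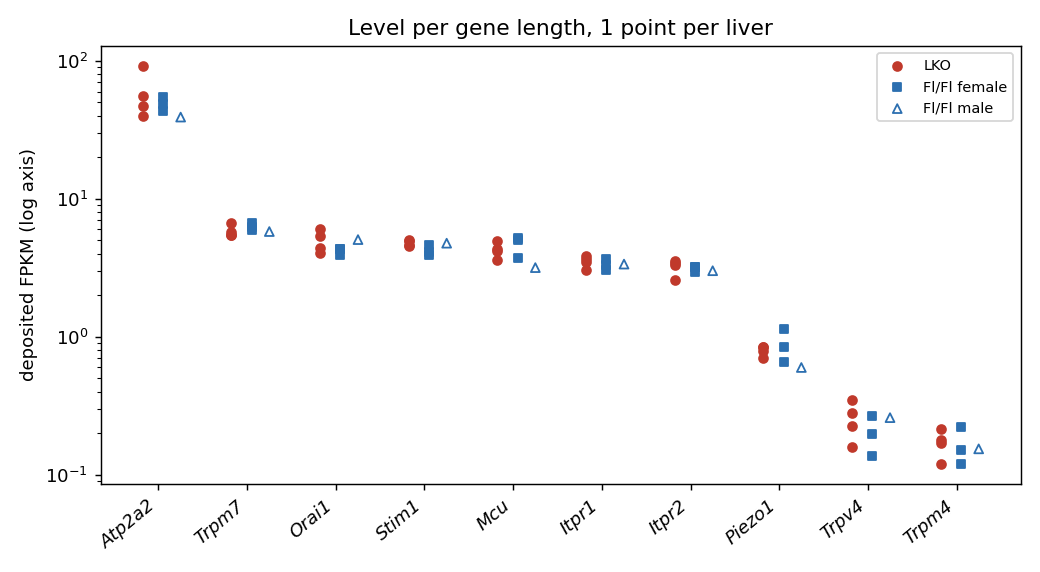
Deposited FPKM (log axis) of the 10 members, ordered by their mean over the 8 livers, with 1 point per liver for LKO (red circles), female Fl/Fl (blue squares) and male Fl/Fl (open triangles). Atp2a2 lies at 39.2 to 92.2 FPKM, 6 members lie between 2.59 and 6.74 FPKM, and Piezo1, Trpv4 and Trpm4 lie near or below 1.

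Likeness of pattern was measured as the root mean square difference of mean-centred log2 CPM over the 8 livers. Among the members the nearest pair was Itpr1 and Itpr2 at 0.07, and the farthest was Trpv4 and Trpm4 at 0.57. Among the 12332 genes searched, Orai1 was nearest to Saraf (0.0635), with Cc2d1a almost as near (0.0637), and Itpr1 was nearest to the mechanosensitive channel gene Tmem63b (0.0361). Stim1 was nearest to Tollip (0.0326), Itpr2 to Ikbkb (0.0508), Trpm7 to Kdm5a (0.0480), Mcu to Phf6 (0.0629) and Piezo1 to Abca8a (0.0902). Atp2a2 was nearest to AW011738 (0.101), Trpm4 to Sema5b (0.140) and Trpv4 to Gm9493 (0.159). A small difference is easier to reach for genes that vary little, as Stim1 and Itpr1 do.

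By position, Atp2a2, Orai1 and Trpv4 lie on chromosome 5, Itpr1 and Itpr2 on chromosome 6, and Stim1 and Trpm4 on chromosome 7. Trpm4 (ENSMUSG00000038260) spans 45302632 to 45333780. Promoter windows were at hand for 7 of the 10 members. Their share of G and C was 60.4% for Trpm7 to 78.4% for Stim1, against a median of 52.4% over all promoters in the table. An E-box was found in the window of Trpm7, a TATA box in that of Piezo1 and a D-box in none of the 7.

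Upstream of the release channels, 26 receptor, Gq protein and phospholipase C genes were tested, and 0 passed with edgeR or DESeq2, while 3 had an unadjusted p under 0.05 (2 above 0 and 1 below). P2ry4, a nucleotide receptor, had the smallest p, at 14.4 ± 1.06 CPM in LKO and 17.1 ± 1.37 CPM in female Fl/Fl (adjusted p = 0.273), and the angiotensin receptor gene Agtr1a was the most abundant at 32.5 ± 1.83 FPKM in LKO and 36.5 ± 0.707 FPKM in female Fl/Fl. Of 16 tested voltage- and ligand-gated channels, 0 passed with edgeR or DESeq2 and 1 had an unadjusted p under 0.05. That was Cacna1d, the pore of an L-type channel, at 4.05 ± 0.385 CPM in LKO and 3.01 ± 0.614 CPM in female Fl/Fl (adjusted p = 0.273), and the nucleotide-gated channel gene P2rx4 was the most abundant at 7.50 ± 0.872 FPKM in LKO and 7.16 ± 1.54 FPKM in female Fl/Fl.

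Downstream, 0 of 31 tested buffers and decoders passed with edgeR, and 2 higher and 2 lower had an unadjusted p under 0.05. Rgn, which encodes the liver calcium-binding protein regucalcin, was the most abundant at 863 ± 37.2 FPKM in LKO and 788 ± 50.1 FPKM in female Fl/Fl. Nfat5, a transcription factor of the response to hypertonic stress, had the smallest p, at 51.9, 45.8, 44.3 and 56.7 CPM in LKO 3, 4, 12 and 13, against 71.9, 63.4 and 63.8 CPM in female Fl/Fl and 53.9 CPM in Fl/Fl 10 (log2 -0.42 ± 0.10, adjusted p = 0.0851, 0.0194 with DESeq2). The calcineurin inhibitors Rcan1 and Rcan2 were named after their values were seen. Rcan1 had 154, 116, 121 and 120 CPM in LKO 3, 4, 12 and 13, against 33.6, 32.1 and 87.6 CPM in Fl/Fl 5, 7 and 9 and 103 CPM in Fl/Fl 10 (log2 1.32 ± 0.40, adjusted p = 0.188). Fl/Fl 5 and 7 were the lowest, and Fl/Fl 9 was also below every LKO liver. Fl/Fl 5 and 7 are also the libraries with the highest Fos, whose part was not tested. Rcan2 had 8.45 ± 1.17 CPM in LKO and 5.84 ± 0.559 CPM in female Fl/Fl (adjusted p = 0.109, 0.0226 with DESeq2). Over all 9 of these wider lists, 134 genes were tested and 0 passed with edgeR, 9 higher and 7 lower had an unadjusted p under 0.05, or 11.9% against 16.1% of all genes tested. The LKO and female Fl/Fl values did not overlap in 20 of the 134, where 15.1% of all genes tested showed this, so neither count stands out from the background. Their median log2 fold change was -0.03, against -0.0032 over all genes tested, and the median size of change was 0.13, against 0.18.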

How the data were processed

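Total RNA of 8 mouse livers was sequenced from NEBNext Ultra RNA libraries, per the labels' protocols. The tools named in the submitters' processing notes, with neither role nor order, are DESeq, DESeq2, edgeR, fastp, featureCounts, HTSeq and STAR, and the build is mm10. The sources used here give no strand setting. Deposited by the authors were whole-number read counts per gene, the same counts divided by 1 size factor per library (a normalised signal, not used here), and FPKM made by the authors from a gene length. The deposited table also holds the authors' own log2 fold change with its p-value and adjusted p. All 10 member positions were the same in GENCODE M21.

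For testing, the counts went into edgeR 4.0.16 under R 4.3.3 (filterByExpr, TMM scaling, robust quasi-likelihood F test, terms for sex and genotype). The sex term takes up the male library, so fold changes are those of the 7 female libraries. CPM use TMM-scaled library sizes, 3 reads being worth 0.0385 to 0.0428 CPM (counting error only). Intervals of 95% use the test's degrees of freedom. DESeq2 1.42.0, limma 3.58.1 (voom, and trend on log2(FPKM + 1)) and the other alternatives are given at the end. The labels do not say that the replicates are separate animals, so each p-value reflects only the variation among the libraries at hand, which may be technical. No pair of libraries agreed within sampling noise.

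The members and gene lists were chosen with earlier results of these data known. The text names all 10 members; in each wider list the genes past the threshold, otherwise that with the smallest p and that with the highest FPKM; the gene of nearest pattern to each member; and relatives of members. Some genes are named outside this rule. Rcan1 and Rcan2 were named after their values were seen, and others, such as Smdt1, Calr, Canx and Ctu2, were set beside a member. Family shares were compared by exact permutation tests over the 7 female libraries. Promoters are from RefSeq (GRCm38.p6), matched by symbol.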

Additional observations from a re-analysis of the deposited data

How the results depend on the processing

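No member passed the threshold in any of 19 other fits, and the smallest adjusted p was 0.155 (Stim1 without Fl/Fl 9). Signs of small changes turned in some: Atp2a2 ran from -0.0519 to 0.404 over fits without a library, Itpr1 from -0.00779 to 0.139, Itpr2 from -0.00527 to 0.137, Trpm4 from -0.132 to 0.319 and Piezo1 from -0.318 to 0.0788. Without Fl/Fl 5 and 7 together, Trpv4 was -0.0681, Trpm4 -0.390 and Mcu 0.191, a fit in which Fl/Fl 9 is the only female control. The Itpr2 share ran from -1.63 to 0.0820 points with 1 library left out. The cause was not tested.

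The counts over all genes, 167 higher and 65 lower, were 1 and 0 with no sex term, 320 and 142 without a filter, 570 and 315 with DESeq2, 82 and 30 on FPKM, 8 and 18 without Fl/Fl 5 and 7, 357 and 174 at an adjusted p of 0.1, 14 and 4 at 0.01, and 98 lower with the clock covariate. They ran from 2 to 476 higher and 2 to 251 lower with 1 library left out. Of the wider calcium genes 0 passed in either direction, against 1 higher (Rcan2) and 2 lower (Nfat5, Micu3) with DESeq2, 1 lower (Nfat5) without a filter, 2 lower at an adjusted p of 0.1, and 0 to 2 higher with 1 library left out, the 2 being Rcan1 and P2ry2 without Fl/Fl 9. No paired analysis was made, since the labels pair no LKO liver with a Fl/Fl liver and the genotypes share no replicate numbers. The clock balance groups LKO 3 and 4 with Fl/Fl 5 and 7, and LKO 12 and 13 with Fl/Fl 9 and 10. It entered the fits only as a covariate, and no fit with these groups as blocks was made. Trpv4 and Trpm4 had the fewest reads of the members, 42 to 177 per library, and varied by 22.8% to 32.1% (coefficient of variation) within groups.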
